A study of Mus musculus with 14 samples.

Results

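Malat1, Meg3, Miat, Snhg11 and Neat1 are 5 genes for long noncoding RNAs, transcripts that can be as abundant as messenger RNA but code for no protein. They were followed across 14 single cells of the mouse retina. Every probe set that the array annotation gives to 1 of these genes alone was taken, which makes 24 probe sets of the 45037 that were not array controls, and 5 genes of the 18193 named by such probe sets. Meg3 has 11 probe sets, Malat1 has 7, and Miat, Snhg11 and Neat1 have 2 each. The rule takes probe sets by gene name and uses no signal of these arrays.

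The cells came from 1 group, so the comparisons are among cells and among probe sets, and none is between conditions. Each cell was a tdTomato+ retinal ganglion cell (RGC) picked by its red fluorescence from the papain-dissociated retina of an adult mouse. The mice were double heterozygotes from Parvalbumin-cre (PV-Cre) animals crossed with the Ai9 Tomato reporter line. The labels give 129P2/OlaHsd for PV-Cre and C57BL/6 with 129 SV for Ai9, whereas the methods give a segregating mix of C57BL/6 and 129P2/OlaHsd for PV-Cre and congenic C57BL/6J for Ai9. Cre under Pvalb removes the stop in front of tdTomato for good, so red cells have expressed Pvalb at some time and need not do so when picked. The reporter was uneven in brightness and bright cells were easier to collect. The PV-Cre stock may carry a retinal degeneration allele, although per the methods no loss of photoreceptors was seen in mice of the cross. How many mice the 14 cells came from is not given here, and each cell was put on 1 array, so no value of a single cell has an error of its own. RNA was reverse transcribed from oligo-dT, tailed, amplified through 35 PCR cycles and hybridised to Affymetrix whole-genome mouse arrays. Libraries went to arrays only after PCR had shown Sncg and not rhodopsin or glutamine synthetase.

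Values are MAS5 signals, a summary of the brightness of the probes of 1 probe set, brought by the authors to the same mean on every array. A probe set was called detected in a cell at 8 times that array's median signal or more, a level between 64.2 (cell 14) and 439.7 (cell 1). Per cell, 4191 to 11910 probe sets were detected, with a median of 7455, cells 5 and 13 being lowest with 4191 and 4362. The 3′ over 5′ signal of Gapdh, a sign of how far cDNA reached toward the 5′ end, ran from 1.09 to 2.61. That of Actb reached much higher, from 1.81 in cell 4 through a median of 3.44 to 106.5 in cell 11, with 20.9 in cell 1, 23.8 in cell 5 and 15.9 in cell 14. Of 15 RGC markers 9 to 14 were detected per cell, with Pou4f3 in none, so markers of the labelled cell type were present in every library. Cells 3 and 6 stand apart: 11 of 14 rod markers were detected in each against 2 to 5 in the other cells, and the summed rod signal ran from 18239 in cell 4 through a median of 49777 to 203394 in cell 3. Gnb1 was in all 14 cells at 17885 to 135722, and it made up nearly all of that sum in cell 4 but the smaller part in cell 3. Without Gnb1 the sum ran from 354.9 in cell 4 through a median of 5421 to 74677 in cell 6 and 156101 in cell 3. Müller glia markers numbered 1 to 6 of 13: Clu was in 12 cells, Glul, which encodes glutamine synthetase, in 8 and Dkk3 in 7, whereas Apoe, Aqp4, Crym, Hes1 and Sox9 were in none. The part of rod or glial RNA in the results was not tested, and values without cells 3 and 6 are given where they bear on one.

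Long noncoding RNAs are made by RNA polymerase II, and many are spliced and polyadenylated like messenger RNA, yet several of the best known stay in the nucleus. Malat1 gathers in nuclear speckles, bodies rich in splicing factors. Its 3′ end is cut by RNase P, which frees a small tRNA-like RNA, mascRNA, and leaves an A-rich tract written in the gene and folded into a triple helix in place of an added poly(A) tail. Neat1, the next gene along the chromosome, is the scaffold of paraspeckles and exists as a short polyadenylated form and a long form. Meg3 is transcribed from the maternal chromosome in the imprinted Dlk1-Dio3 domain and is strong in neurons. Miat, also called Gomafu or RNCR2, is a spliced nuclear RNA known from neurons and from the developing retina, and it binds splicing factors. Snhg11 carries small nucleolar RNAs in its introns and is best known from the brain.

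The stretches around the starts of these genes were set side by side. The table of RefSeq start windows on GRCm38.p6 holds 4 of the 5 genes (all but Neat1), each from 250 bases before the start to 50 after it. Capitals mark matches, on either strand, to 4 motifs: the TATA box written TATAAA, the CAAT box written CCAAT, the GC box written GGGCGG and the cAMP response element written TGACGTCA. Malat1 lies at chr19:5802623-5802922 on the minus strand, Meg3 (the first of its 2 windows) at chr12:109540746-109541045 on the plus strand, Miat at chr5:112228899-112229198 on the minus strand and Snhg11 at chr2:158375463-158375762 on the plus strand.
Malat1: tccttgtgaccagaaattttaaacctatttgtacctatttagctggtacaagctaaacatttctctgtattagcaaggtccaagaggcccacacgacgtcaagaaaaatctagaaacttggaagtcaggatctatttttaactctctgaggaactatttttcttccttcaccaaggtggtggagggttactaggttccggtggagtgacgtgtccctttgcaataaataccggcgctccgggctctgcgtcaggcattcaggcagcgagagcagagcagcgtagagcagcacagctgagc
Meg3: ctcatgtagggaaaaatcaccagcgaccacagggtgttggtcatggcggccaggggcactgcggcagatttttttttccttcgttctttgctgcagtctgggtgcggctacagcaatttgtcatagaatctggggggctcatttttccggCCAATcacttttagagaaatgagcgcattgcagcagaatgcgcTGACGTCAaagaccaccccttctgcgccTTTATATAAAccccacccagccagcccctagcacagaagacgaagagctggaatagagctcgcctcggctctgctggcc
Miat: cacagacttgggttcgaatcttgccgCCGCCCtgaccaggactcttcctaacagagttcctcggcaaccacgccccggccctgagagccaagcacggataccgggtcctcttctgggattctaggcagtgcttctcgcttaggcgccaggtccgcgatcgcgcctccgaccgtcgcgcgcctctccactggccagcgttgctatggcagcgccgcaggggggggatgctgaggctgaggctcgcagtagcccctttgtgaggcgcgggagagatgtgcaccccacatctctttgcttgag
Snhg11: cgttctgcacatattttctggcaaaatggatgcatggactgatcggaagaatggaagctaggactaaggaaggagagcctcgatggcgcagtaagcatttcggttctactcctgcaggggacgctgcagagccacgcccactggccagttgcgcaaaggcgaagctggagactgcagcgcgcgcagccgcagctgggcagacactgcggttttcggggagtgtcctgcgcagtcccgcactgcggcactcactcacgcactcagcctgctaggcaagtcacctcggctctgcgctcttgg
The Meg3 window holds TATAAA 25 bases before the start, overlapped by the same box on the other strand, with TGACGTCA at 57 and CCAAT at 100 bases before it. Over all 32851 windows of all genes, 13.6% hold TATAAA, 37.4% CCAAT, 35.7% GGGCGG and 1.79% TGACGTCA. The Miat window holds 1 GC box, on the other strand, and has the highest GC content of the 4, 64.3% with 25 CG dinucleotides, against medians of 52.7% and 7 over all windows. Snhg11 has 60% GC with 21 CG and none of the 4 motifs. Malat1 has 47% GC with 10 CG and none of the motifs either. These are letters in a window, and the arrays measured no promoter activity.

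Snhg11, Meg3 and Miat were each detected in all 14 cells by their leading probe set, the one with the highest mean log2 signal of its gene. Malat1 was detected in 9 cells and Neat1 in none. Of all genes, 2.64% were detected in all 14 cells, 17.5% in 9 or more, 24.8% in 7 or more and 41.8% in no cell. Over all 24 probe sets, 207 of 336 probe set and cell pairs were detected, 61.6%, against 17.5% of pairs over the whole array. Of the 24 probe sets, 6 were detected in all 14 cells and 3 in none, against 1.79% and 53.1% of all probe sets. A signal can be read only against the same probe set in another cell, so the members are not ranked by level, and each is placed by its percentile among all probe sets of an array.

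**Figure D1:**
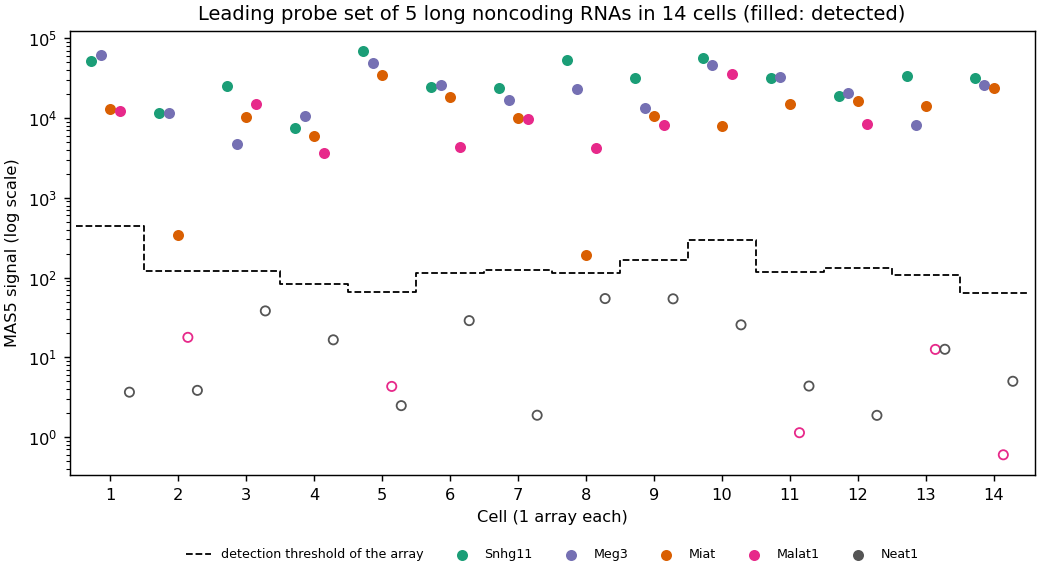
Signal of the leading probe set of each gene (logarithmic axis) in cells 1 to 14, with filled points for detected values and a dashed line for each array's detection threshold. Snhg11 and Meg3 stay high in every cell, Miat is near the threshold in cells 2 and 8, Malat1 is either at 3689 or more or at 17.8 or less, and Neat1 is below the line throughout.

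Snhg11, the snoRNA host, was among the brightest features of every array. Its probe set 1434292_at read 7432 in cell 4 at the lowest, 31617 at the median and 68387 in cell 5 at the highest. Cells 2 and 4 were the dimmest, and cells 1, 5, 8 and 10 were the brightest, each at 52093 or more. The mean log2 signal was 14.82 ± 0.89 (SD, n = 14 cells), and the probe set sat between percentile 97.8 of its array in the lowest cell and 99.99 in the highest. Among the 480 genes found in every cell 30.2% had a lower SD. The other probe set, 1437311_at, ran from 4.26 through 295.6 to 17000 and was detected in 7 cells (1, 5, 7, 8, 9, 10 and 12). In the remaining 7 it read 86.4 or less, although 1434292_at read 7432 or more there.

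Meg3, the imprinted RNA, was also in every cell. The leading probe set 1429256_at read 4657 in cell 3 at the lowest, 21758 at the median and 62053 in cell 1 at the highest, a mean log2 signal of 14.28 ± 1.06 (SD, n = 14 cells). It lay between percentiles 94.5 and 99.9 of the arrays, and 44.0% of the genes found in every cell had a lower SD. Probe set 1452905_at read 6857 in cell 8, 24742 at the median and 54121 in cell 3, a mean log2 signal of 14.24 ± 0.92 (SD, n = 14 cells). Cell 3, lowest by the first probe set, was thus highest by the second, and cell 1, highest by the first, read only 8525 by the second.

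The remaining Meg3 probe sets differed in which cells they lit. In Affymetrix names _a_at marks probes shared by transcripts of the same gene, _s_at probes shared by transcripts that may be of different genes, and _x_at probes of which some may also match other sequences. A pair of Meg3 probe sets, 1439380_x_at and 1452183_a_at, was detected in all 14 cells and both were lowest in cell 3, at 632.4 and 665.8. Their highest values, 67997 and 45208, were both in cell 14. A further 4 probe sets missed 1 cell each: 1429257_at and 1436057_at missed cell 5, and 1428764_at and 1426758_s_at missed cell 13. 1452906_at missed both of these cells, and 1428765_at was detected in 10 cells. Cells 5 and 13 are also those with the fewest detected probe sets of any kind, and in them 6 and 7 of the 11 Meg3 probe sets were detected against 9 to 11 elsewhere. All 11 were detected in cells 3, 4 and 7. Over the 11 probe sets 134 of 154 pairs were detected, 87.0%.

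The last Meg3 probe set, 1436713_s_at, stood alone. It read 2640.0 in cell 2, 4181 in cell 3, 3569 in cell 4 and 983.6 in cell 7, and 81.1 or less in the other 10 cells. In each of those 10 cells 6 or more other Meg3 probe sets were detected.

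**Figure D2:**
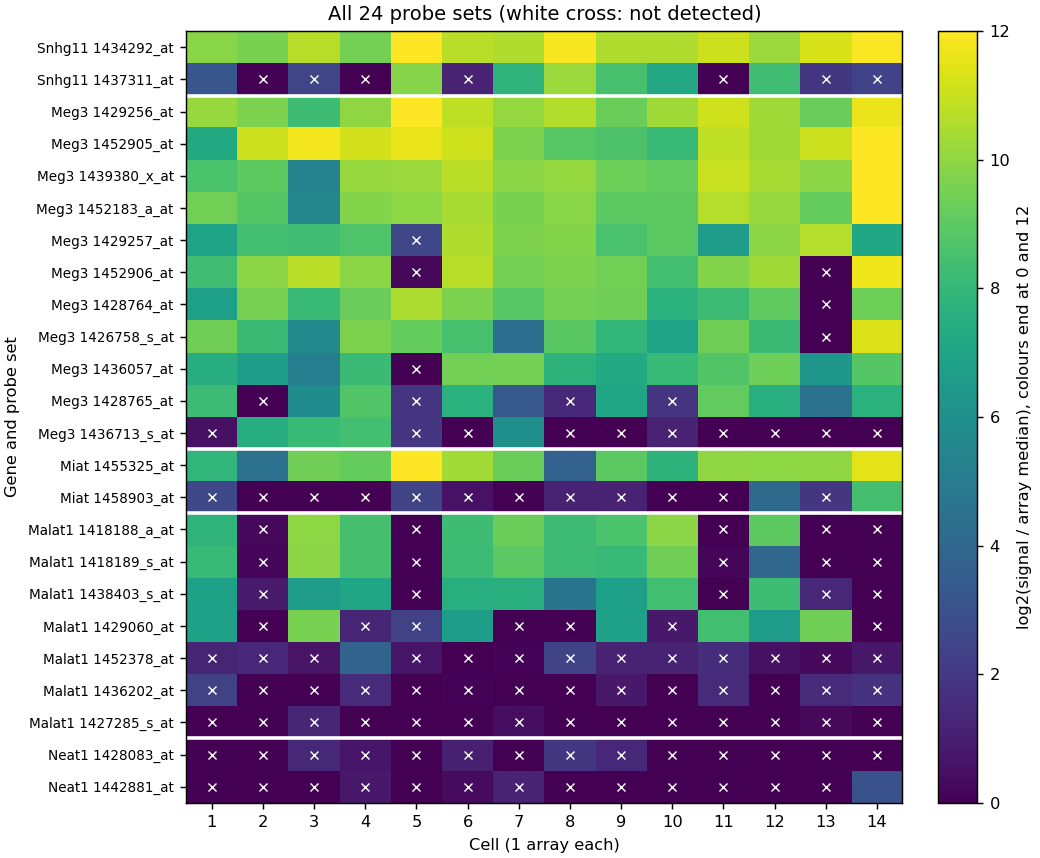
All 24 probe sets (rows, by gene) in cells 1 to 14 (columns), coloured by log2 of signal over the array's median from 0 to 12, with a white cross where a probe set was not detected. Most rows of Meg3 are bright across the plot, whereas the rows of Malat1 split into cells with 3 or 4 detected probe sets and cells with 1 or none.

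Miat, the splicing-factor-binding RNA, was detected in every cell, but in 2 of them barely. Its probe set 1455325_at read 192.1 in cell 8 at the lowest, 11773 at the median and 34850 in cell 5 at the highest (34849.9). Cell 2 read 337.0, and the remaining 12 cells read 5925 or more. The mean log2 signal was 12.90 ± 2.18 (SD, n = 14 cells), and 96.0% of the genes found in every cell had a lower SD. The probe set lay between percentiles 83.0 and 99.2 of the arrays. At a fixed signal of 1000 Miat would be detected in 12 cells. Cell 2 had 9162 probe sets and 14 of 15 RGC markers detected, and cell 8 had 7200 and 11, against medians of 7455 and 12.5. The part of depth in the low Miat values was not tested. The other probe set, 1458903_at, was detected in 2 cells, at 2814 in cell 14 and 286.1 in cell 12. Its undetected values reached 331.9 in cell 1, where the median and so the threshold were highest.

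Malat1, the speckle RNA, was the member that divided the cells. Its leading probe set 1418188_a_at read 0.599 in cell 14 at the lowest, 4297 at the median and 35308 in cell 10 at the highest. In 9 cells (1, 3, 4, 6, 7, 8, 9, 10 and 12) it read 3689 or more, and in the other 5 (2, 5, 11, 13 and 14) it read 17.8 or less, with nothing between. The step from the brightest undetected cell to the dimmest detected one was 7.70 on the log2 scale. Over the 4897 genes detected in 4 to 10 cells the median step was 1.60, and 7 genes, Malat1 included, had a step as large. Mean log2 signal was 9.09 ± 5.76 (SD, n = 14 cells), with no cell near that mean. Percentiles of the probe set on the arrays ran from 1.91 to 99.4. Without cells 3 and 6, Malat1 was detected in 7 of 12 cells.

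Some Malat1 probe sets repeat that division, and of these 1418189_s_at has the same target sequence as the leading one, so it is no separate check. 1418189_s_at and 1438403_s_at were detected in the same 9 cells as 1418188_a_at, with undetected values of at most 17.3 and 35.0. Their lowest detected values were 256.9 in cell 12 and 363.8 in cell 8, so the gap was smaller than for the leading probe set. 1429060_at gave another set of cells. It read 0.838 in cell 8, 764.8 at the median and 11879 in cell 3, and was detected in 7 cells, of which 5 (1, 3, 6, 9 and 12) also had the leading probe set. It was bright in cell 11, at 4874, and in cell 13, at 9011, where the leading probe set read 1.13 and 12.6. Cells 4, 7, 8 and 10 showed the opposite, with 64.7 or less for 1429060_at.

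By any of its probe sets, Malat1 was detected in 11 cells, and the cells with none of the 7 were 2, 5 and 14. The 3 other probe sets gave almost nothing: 1452378_at passed in cell 4 alone, at 144.9, and 1436202_at and 1427285_s_at passed in no cell. Of the 5 cells without the leading probe set, 4 lay under the median depth of 7455 probe sets: cell 5 with 4191, cell 11 with 7112, cell 13 with 4362 and cell 14 with 5828, whereas cell 2 had 9162. Cells 3, 8 and 10, which had the leading probe set, also lay under that median, with 6237, 7200 and 6129. Cells 5, 11, 13 and 14 had the fewest RGC markers of all, 9, 10, 9 and 9 of 15 against 11 to 14 elsewhere. Cells 5, 11 and 14 were also 3 of the 4 with the highest Actb 3′ over 5′ ratio. The part of depth and cDNA length in the Malat1 division was not tested. Where along the RNA each probe set lies was not analysed here.

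Neat1, the paraspeckle scaffold, gave hardly any signal. 1428083_at read 1.87 in cell 12 at the lowest, 8.80 at the median and 54.5 in cell 8 at the highest, all under the threshold. 1442881_at read 0.897, 10.5 and 64.7, and the highest of these, in cell 14, lay just over that cell's threshold of 64.2. The median cell put the 2 probe sets at percentiles 43.9 and 41.3 of the array. With 1 of 28 pairs detected, 3.57%, Neat1 was not detectable by these probe sets at this sensitivity, which does not show that the RNA was absent.

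Probe sets of 1 gene were compared across the 14 cells by Pearson's r of log2(signal + 32). The points share depth, amplification and cell, and r is given as a description. For Malat1, 1418188_a_at correlated with 1418189_s_at at 0.94 and with 1438403_s_at at 0.96, and the calls of the 3 were the same in all 14 cells. With 1429060_at the leading probe set correlated at 0.14, and the calls matched in 8 cells. For Meg3, the 45 pairs among the 10 probe sets detected in 7 or more cells ran from -0.45 through a median of 0.16 to 0.97. The top pair was 1439380_x_at with 1452183_a_at, and the bottom pair was 1429256_at with 1452905_at (rho -0.33). The pair of Snhg11 correlated at 0.56, that of Miat at 0.32 and that of Neat1, almost all undetected, at -0.36.

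Among the 4 detected genes, by leading probe set, Meg3 and Snhg11 gave the highest r of 6 pairs, 0.60 (rho 0.59), and 0.66 without cells 1 and 3, which lie farthest from the median of Meg3. It was 0.70 without cells 3 and 6, and leaving out each cell in turn moved it between 0.53 and 0.69. Cells 1, 5 and 10 were high for both RNAs, and cells 2 and 4 were low for both. Other cells departed from this. Cells 3 and 13 were lowest for Meg3, at 4657 and 8251, but read 25476 and 33724 for Snhg11 against a median of 31617. Cell 8 read 53552 for Snhg11 with Meg3 at 22908, near its median of 21758. The r with Snhg11 depends on the Meg3 probe set. It was -0.42 with 1452905_at and between -0.33 and 0.22 with the other 8 that were detected in 7 or more cells. Of the 479 other genes found in every cell, 14.0% had an r with Snhg11 at least as high as that of Meg3. Read from the side of Meg3, 2.71% had an r at least as high as that of Snhg11.

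Malat1 gave an r of -0.03 (rho -0.02) with Meg3 and of 0.00 (rho -0.01) with Snhg11. With Miat r was -0.06 and rho -0.38, and r was -0.35 without cell 2. Of the 5 cells without the leading Malat1 probe set, 4 were among the 6 highest for Miat (cells 5, 11, 13 and 14, at 14110.0 to 34850), and cell 2 was the second lowest. Miat gave 0.22 with Meg3 and 0.20 with Snhg11. The 2 cells with little Miat move the latter in opposite directions. It was -0.080 without cell 2, 0.58 without cell 8 and 0.51 without both.

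Depth moved with Snhg11 and, less, with Malat1. The log2 signal of Snhg11 was lower in cells with more detected probe sets, with r of -0.70 (rho -0.74). That direction is common among the 480 genes found in every cell: their median r with the number of detected probe sets was -0.33, and 12.9% lay at or below the value of Snhg11. All arrays are scaled to the same mean, and the part of this scaling in the relation was not tested. Malat1 correlated with the number of detected probe sets at 0.47 and with the log2 array median at 0.60 (rho 0.81), and Meg3 and Miat at -0.17 with the former. The Gapdh 3′ over 5′ ratio (log2) correlated with Malat1 at -0.46 and with Miat at 0.42, and that of Actb at -0.54 with Malat1, 0.47 with Meg3, 0.46 with Miat and 0.40 with Snhg11. The number of RGC markers detected correlated with Malat1 at 0.66 and with Snhg11 at -0.52. The summed signal of the RGC markers correlated with Malat1 at -0.14. Malat1 correlated with the number of rod markers at 0.16 and with that of Müller markers at 0.57. With the summed rod signal Malat1 correlated at -0.24 and with the summed Müller signal at 0.31. With the summed signal of 5 astrocyte markers, of which 0 to 2 were detected per cell and Gfap and Pdgfra in none, it correlated at 0.62. The part of these in the Malat1 pattern was not tested.

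**Figure D3:**
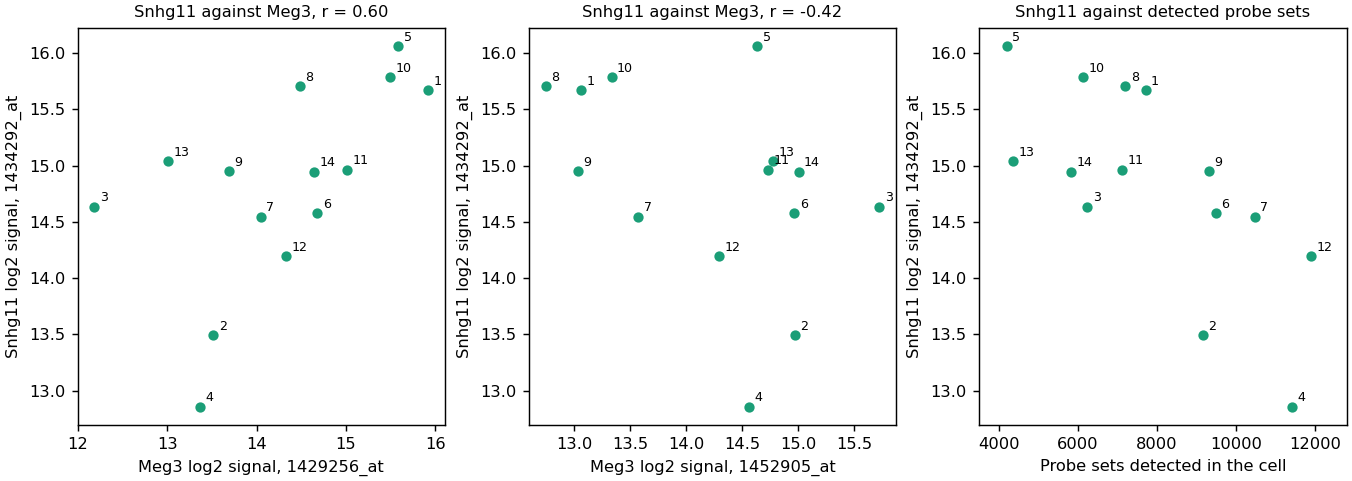
Log2 signal of Snhg11 (1434292_at, vertical axis, 14 numbered cells) against Meg3 by 1429256_at, against Meg3 by 1452905_at, and against the number of probe sets detected in the cell. The points slope upward in the first panel (r 0.60) and downward in the second (r -0.42) and the last (r -0.70).

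Genes were next compared by leading probe set alone. For each detected member the 5 genes with the most similar pattern were listed from the 6882 detected in 4 or more cells, by r over the 14 cells. For Snhg11 they were Uchl1 (0.89, rho 0.90), Mapk10 (0.87), Rtn3 (0.87), Rnf187 (0.83) and Slc25a4 (0.82), all found in every cell. Uchl1 is a ubiquitin hydrolase abundant in neurons, Mapk10 the neuronal JNK kinase, and Slc25a4 the mitochondrial ADP/ATP carrier. Meg3 was closest to Kif5a, a neuronal kinesin (0.85, rho 0.86), followed by Gtpbp6 (0.83), Ssr4 (0.80), Erdr1 (0.79) and Arid4b (0.76). The Meg3 list was drawn from 1429256_at alone, which correlated with the Meg3 probe set 1452905_at at -0.45. Miat was closest to Vps39 (0.86), Tmed10 (0.86), Ccndbp1 (0.85), Rpl6 (0.80) and Elob (0.80), and rho for Rpl6 was 0.42. Malat1 was closest to Vps72 (0.94), D5Ertd579e (0.94), Cmip (0.93), Ewsr1 (0.92) and Btbd1 (0.90). Vps72 belongs to chromatin remodelling complexes and Ewsr1 is an RNA-binding protein. At r of 0.7 or more lay 198 genes for Malat1, 36 for Snhg11, 30 for Miat and 16 for Meg3. At -0.7 or less lay 27, 71, 38 and 19, in the same order. The median r over the 6882 genes also differed, at 0.18 for Malat1, -0.17 for Snhg11, -0.04 for Miat and 0.01 for Meg3. The part of depth in these counts was not tested. Of 605 other genes detected in 9 cells, 4 had exactly the cells of Malat1: Btbd1, D5Ertd579e, Syn3 and Vps72.

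Genes beside the members on the chromosome were compared next, taking the 3 nearest measured genes on each side. Of all genes, 24.8% were detected in 7 or more cells and 41.8% in none. How many calls would match between unrelated genes was not computed. Ltbp3, next to Malat1, was detected in 9 cells, and its calls matched those of Malat1 in 8 cells. Znrd2 was detected in 8 cells with 11 matching calls, and Ehbp1l1 in 3 with 6. On the other side lie Neat1, Frmd8 and Slc25a45, with 0, 1 and 0 cells. Around Miat, Pitpnb was detected in 8 cells, Tpst2 in 6, Mn1 in 1, C130026L21Rik in none and the crystallins Cryba4 and Crybb1 in 0 and 1. Around Snhg11, Ralgapb was detected in 12 cells, Snhg17 in 1 (cell 3, at 10477), and Lbp, Tgm2, Adig and Gm14204 in none. Before Meg3 lie Wars, detected in 13 cells with an r of 0.51 with Meg3, Wdr25, in 4, and Dlk1. After it lie Rian, Mirg and 3110009F21Rik, the last detected in no cell.

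The Dlk1-Dio3 domain holds, after Meg3, the noncoding RNAs Rian and Mirg, which are expressed from the maternal chromosome too. By leading probe set Meg3 was in every cell, Mirg in 6, Rian in 5 and Dlk1 in 1, against a median of 1 cell over all genes. By its probe set 1436713_s_at, Meg3 was detected in 4 cells. Rian was detected in cells 2, 3, 4, 12 and 14, at 10096, 9857, 3466, 1111 and 5467, and read 15.6 or less in the other 9 cells. Mirg was detected in 6 cells, with 2249 in cell 1 at the highest. Dlk1, a protein-coding gene read from the paternal chromosome, passed in cell 12 alone, at 708.0. Rian correlated with Meg3 at -0.56 by 1429256_at, at 0.61 by 1452905_at and at 0.62 by 1436713_s_at, the extremes of the 11 probe sets, and the other 8 ran from -0.39 to 0.35. 1436713_s_at was singled out after its values were seen, and its calls matched those of Rian in 11 cells, with cells 2, 3 and 4 positive for both.

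Meg3 also holds 2 microRNA genes of RefSeq, Mir1906-1 and Mir770, on GRCm38.p6 at chr12:109544588-109544609 for the mature miR-1906 and at chr12:109563710-109563731 and chr12:109563744-109563765 for the 5p and 3p arms of miR-770, all on the plus strand. They are shown because the same primary transcript can give rise to them, with the seed, bases 2 to 8, in capitals; the arrays did not measure them, and the 3 seeds differ.
mmu-miR-1906: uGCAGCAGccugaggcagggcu
mmu-miR-770-5p: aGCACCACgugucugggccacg
mmu-miR-770-3p: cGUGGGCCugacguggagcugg

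Other long noncoding RNAs were taken for comparison. Of 45 measured others of a list of 55, 1 was detected in all 14 cells, 7 in 7 or more, 23 in 1 to 6 and 15 in none, with a median of 1 cell, which is also the median of all genes. The one in every cell was Norad, a cytoplasmic RNA that binds Pumilio proteins, at 177.5 in the lowest cell, 15267 at the median and 42929 in the highest. Tug1, an RNA needed in photoreceptor development, the Mir124a-1hg host transcript and Snhg10 were each detected in 9 cells, Gas5 and Oip5os1 in 8 and Snhg12 in 7. Against these, Snhg11 was the snoRNA host detected in the most cells on the list. The list was not drawn by signal, but like the members it was chosen with results of these arrays known.

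**Figure D4:**
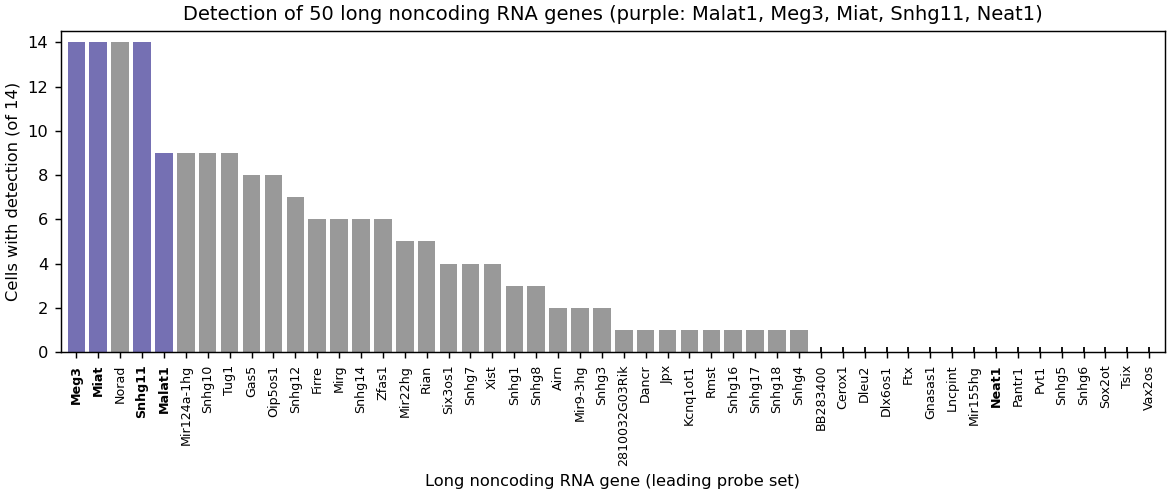
Number of cells, of 14, in which each of 50 long noncoding RNA genes was detected by its leading probe set, with the 5 members in purple. Meg3, Miat and Snhg11 share the full height of 14 with Norad, Malat1 stands at 9 and Neat1 at 0.

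Proteins that work with these RNAs were measured on the same arrays. Of all genes, 24.8% were detected in 7 or more cells and 41.8% in none, with a median of 1 cell. Of 21 paraspeckle proteins measured, 12 were detected in 7 or more cells and 2, Taf15 and Dlx3, in none, with a median of 8 cells. Nono was detected in 11 cells, Sfpq in 8 and Pspc1 in 2, these 3 being the core proteins that bind Neat1, and Smarca4 in all 14. All 22 nuclear speckle proteins measured were detected in at least 1 cell, 19 of them in 7 or more, with a median of 10. Srsf3, Rnps1 and Tra2b were detected in 13 cells and Srrm2, a core speckle protein, in 5. Of 5 RNA-binding proteins known to bind Miat, Sf1 was detected in 13 cells, Khdrbs1 in 12, Srsf1 in 10, Qk in 3 and Celf3 in 1. Of 7 subunits of the Polycomb complex PRC2, which Meg3 can bind, 4 were detected in 7 or more cells, led by Ezh1 and Rbbp7 with 11, and Ezh2 in none. Of 15 genes for RNA turnover and 3′ end formation 7 reached 7 cells, among them Rpp30, a protein subunit of RNase P, with 9, and Mettl16, which binds the Malat1 triple helix, with 4.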

How the data were processed

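Intensity values deposited by the authors were analysed: MAS5 signals (the version is not given here), 1 column per cell, with a trimmed mean of 500.003 to 500.011 on every array (2% left out at each end). Of 45101 probe sets 64 were array controls and 45037 were tested. The annotation gave 34945 a single gene symbol, 932 several, and 9160 are unnamed here. By Entrez number, 34741 were matched to RefSeq on GRCm38.p6. A gene was read by its probe set of highest mean log2 signal. Detection was set at 8 times the array median. None of 210 values of 15 bacterial control probe sets passed it.

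With 1 group, 14 cells and no mouse named per cell, no p-value was computed. Pearson's r and Spearman's rho used log2(signal + 32) and are descriptions. The text names the 5 members, list genes found in the most cells or in none, the 5 genes of highest r with each member among those detected in 4 or more cells, and 3 measured neighbours per side. Members, lists and rules were chosen with earlier results of these data known. Scripts ran in Python 3.11.15 with numpy 2.4.6, pandas 2.3.3 and matplotlib 3.10.9, and were tested on simulated data. Other thresholds, scalings, pseudocounts, probe set rules and left-out cells were tried. Depth of an array is not a read count, and precision is limited by having 14 arrays.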

Additional observations from a re-analysis of the deposited data

How the results depend on the processing

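Of 45 alternative counts of cells per member, 43 stayed within 1.5 times the reported count. That band is wide and takes in the counts made after leaving out cells, so it is no measure of stability. Miat went from 14 cells to 13 at 16 times the array median and to 12 at a signal of 1000. By the mean of all its probe sets Miat was in 11 cells and Malat1 in 8, and Malat1 was in 11 when any probe set counted. Malat1 stayed at 9 cells at 4 and at 16 times the array median and at a signal of 1000. Neat1 went from 0 to 2 cells when the threshold was the highest bacterial control signal of the array and to 1 cell when any probe set counted. Averaging all probe sets of a gene, detected or not, lowered the mean log2 signal to 11.86 for Meg3, 8.93 for Miat and 11.56 for Snhg11. For Malat1 the averaged value was 6.45, against 9.09 by the leading probe set, and for Neat1 3.15. The same averaging gave an r of 0.42 for Malat1 with Meg3, 0.25 for Malat1 with Snhg11, and -0.18 for Meg3 with Snhg11, against the 0.60 of the leading probe sets. Without cells 5 and 13, r of Malat1 with Snhg11 was 0.25. Leaving out each cell in turn moved r of Malat1 with Miat between -0.35 and 0.057, and of Miat with Snhg11 between -0.080 and 0.58. The other 113 alternative correlations moved by no more than 0.2. Counts of list genes depended on the threshold: other long noncoding RNAs in 7 or more cells numbered 7, but 12 at 4 times the median, 3 at a signal of 1000 and 14 at the control signal. The causes were not tested. Each cell was measured once, so a signal near the threshold has no error, and low signal cannot be told apart from failed amplification of that cDNA. No paired analysis was possible because there is 1 group.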
